A study of Mus musculus with 16 samples.

Results

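The transcripts of 10 genes were followed, the epidermal growth factor (EGF) family ligands Hbegf, Areg, Ereg, Tgfa, Btc and Nrg1 and their ErbB receptors Egfr, Erbb2, Erbb3 and Erbb4. They were taken by gene symbol from the 53768 genes of the expression matrix and held 43 of its 135202 isoforms. RNA was sequenced from 16 primary neuronal cultures (PNCs) prepared from the cortex of wild-type mouse embryos on day 15 of gestation. Vehicle (VEH) or 10 μM tianeptine (TIA), an antidepressant, was added on day 8 in vitro (DIV 8), and 24 h later the cultures went through 3 h of oxygen-glucose deprivation (OGD), an in vitro model of ischemia, or through a sham procedure. Reoxygenation lasted 6 h before lysis. The groups were CONTROL-VEH (cultures 1 to 4), CONTROL-TIA (5 to 8), OGD-VEH (9 to 12) and OGD-TIA (13 to 16), with 4 cultures each. Pooling of embryos is not described by the labels, nor is it said whether cultures of different groups came from the same dissection, so the p-values measure the spread between these cultures. A depth of about 19.36 to 25.02 M reads per culture was estimated from the steps of low values. Cultures 4, 8, 12 and 16, the last of each group, and OGD-VEH culture 9 stood apart from the others of their groups, and results that rest on them are given with and without them.

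EGF family ligands are made as membrane-anchored precursors that are released by proteases of the ADAM family. HB-EGF, amphiregulin, epiregulin, TGF-alpha and betacellulin bind EGFR, several of them also bind ErbB4, and neuregulin 1 binds ErbB3 and ErbB4. ErbB2 binds no ligand of its own and works as a partner in receptor pairs. The paired receptors are tyrosine kinases that signal through Ras and ERK and through PI3-kinase. In the cortex EGFR is best known from progenitors and glia, and ErbB4 from interneurons.

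RefSeq promoter windows, which run from 250 bases before to 50 after the start, were matched for 6 of the 10 genes, namely Areg, Btc, Tgfa, Egfr, Erbb2 and Erbb4 (GRCm38.p6). They were searched on both strands for the AP-1 motif TGANTCA, the site of Fos and Jun dimers, and for the cAMP response element TGACGTCA. No window of the 6 held the AP-1 letters, which 7.81% of all 32851 windows held. The cAMP response element stood in the Areg window, 61 bases before the start, against 1.79% of all windows. The letters TCCTCC, picked after the sequences had been seen, stood in 4 of the 6 windows, where 34.5% of all windows held them. In the 150 bases before the start they occurred 4 times in Egfr and 3 times in Erbb2, overlapping matches counted, and 1 time each in Erbb4, which was not called, and in Areg, against 20.1% of all windows with at least 1 match there. The windows of Btc and Tgfa held none. The 150 bases before the start of both receptors are shown with these letters, or their complement read backwards, in capitals, because both receptors were called over both drug arms. Areg is shown with its cAMP response element in capitals, since it was the one matched gene that held it, although its transcript was near the limit of detection.
Egfr, chr11:16752053-16752202, plus strand: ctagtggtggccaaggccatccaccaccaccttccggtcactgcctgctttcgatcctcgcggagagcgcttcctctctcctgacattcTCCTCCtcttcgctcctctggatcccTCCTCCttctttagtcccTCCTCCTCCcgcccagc
Erbb2, chr11:98412334-98412483, plus strand: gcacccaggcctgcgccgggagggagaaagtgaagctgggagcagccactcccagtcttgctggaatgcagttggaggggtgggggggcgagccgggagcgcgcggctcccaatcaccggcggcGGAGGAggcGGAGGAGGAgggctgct
Areg, chr5:91139449-91139598, plus strand: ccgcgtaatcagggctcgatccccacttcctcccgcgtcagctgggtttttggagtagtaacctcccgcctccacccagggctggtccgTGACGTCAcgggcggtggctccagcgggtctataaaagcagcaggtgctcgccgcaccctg

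Expression was deposited as FPKM (reads per kilobase of transcript, scaled to sequencing depth) per isoform. A gene's value is the sum over its isoforms, and a second value weights each isoform by its length, so that it follows the number of reads. Of the 10 genes, 6 had a mean of 0.5 FPKM or more over the 16 cultures and were tested, namely Hbegf, Tgfa, Nrg1, Egfr, Erbb2 and Erbb4. In CONTROL-VEH the sums ran from 15.3 ± 5.46 FPKM for Egfr (mean ± SD, n = 4) through 9.55 ± 1.24 for Hbegf, 8.80 ± 2.86 for Erbb4, 7.53 ± 0.632 for Tgfa and 3.80 ± 0.353 for Nrg1 to 2.51 ± 2.48 for Erbb2. The spreads of Egfr, Hbegf and Erbb4 overlapped. Read from the longest coding isoforms alone, Hbegf was first and Egfr-201 (7.41 ± 0.953 FPKM) and Tgfa-201 (7.41 ± 0.599) were level, so the first place of Egfr rested on its short isoforms.

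On GRCm38 the genes lie on 7 chromosomes. Areg (5:91139599-91148432), Ereg (5:91074622-91093646) and Btc (5:91357261-91402994) are neighbours on chromosome 5, and Egfr (11:16752203-16918158) and Erbb2 (11:98412470-98437716) share chromosome 11. The others are Hbegf (18:36504929-36515805), Tgfa (6:86195223-86275719), Nrg1 (8:31814551-32884029), Erbb3 (10:128567523-128589652) and Erbb4 (1:68032186-69108059). Hbegf, Areg, Ereg and Erbb3 had 1 annotated isoform each, whereas Nrg1 had 18.

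The remaining ligands and ErbB3 were at the edge of detection. Areg ranged from 0 to 0.287 FPKM, about 0 to 7.40 reads in a culture, and the 4 groups overlapped. Ereg ranged from 0 to 0.054 FPKM, at most about 4.77 reads. Btc, the betacellulin gene, stayed at or below 0.256 FPKM outside OGD-VEH, where the 4 cultures ran up to 1.45 FPKM in culture 12. Erbb3 ranged from 0.078 to 0.275 FPKM, about 9.85 to 39.9 reads in a culture, with all groups overlapping. In the limma fit without a filter on low values none of these 4 genes was a DEG in any comparison. With OGD-VEH against CONTROL-VEH the log2 fold change was 1.08 (SE 0.68, padj = 0.432) for Btc, -0.31 (padj = 0.694) for Areg and 0.08 (padj = 0.949) for Erbb3. All 4 OGD-VEH cultures had Ereg reads, at 0.012 to 0.054 FPKM, against 0 in 3 of the 4 CONTROL-VEH cultures (unadjusted p = 0.0123 and padj = 0.137 in limma), and no fold is given at such counts. Groups set apart in this way, OGD-VEH above, were found for 7.65% of 32577 genes without a filter. In OGD-TIA Ereg stood at 0, 0, 0.01 and 0.01 FPKM, below all 4 OGD-VEH cultures, as 1.87% of 32717 genes did (unadjusted p = 0.0196 and padj = 0.674 in limma). The exact permutation p was 0.0286 for both comparisons, which share the OGD-VEH cultures, and the nearest cultures of the groups held about 1 read each.

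**Figure D1:**
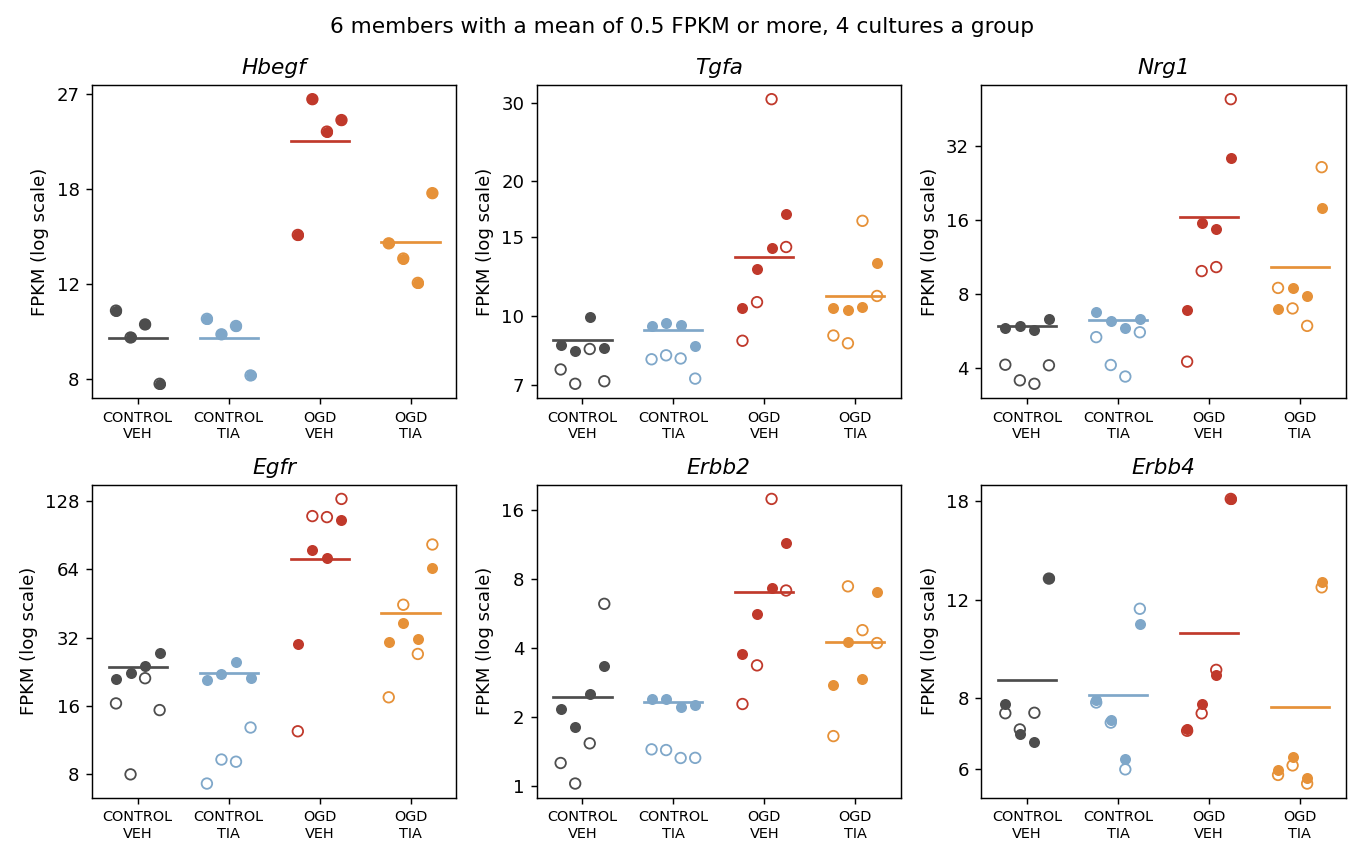
FPKM on a log scale for the 6 tested genes in the 4 groups, with open circles for the isoform sum, filled circles for the length-weighted value and a bar for the mean of the latter (n = 4); cultures are drawn from left to right by number. For Hbegf, which has 1 isoform, both values coincide; OGD-VEH culture 9 lies below the other 3 OGD-VEH cultures for Egfr (12.4 against 109 to 130 FPKM as a sum), and the rightmost culture of each group is its highest for Erbb4.

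Hbegf encodes heparin-binding EGF, a ligand that is induced early after injury in many tissues. It stood at 10.7, 9.55, 10.1 and 7.84 FPKM in CONTROL-VEH cultures 1 to 4 and at 14.8, 26.4, 23.0 and 24.2 FPKM in OGD-VEH cultures 9 to 12. In CONTROL-TIA the values were 10.3, 9.68, 10.0 and 8.12 FPKM, and in OGD-TIA they were 14.3, 13.4, 12.1 and 17.7 FPKM. Every OGD culture was above every control culture in both drug arms, and within OGD the highest TIA culture overlapped the lowest VEH culture. About 386 to 1358 reads lay behind each value, so counting error was small beside the spread between cultures.

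OGD in vehicle cultures raised Hbegf from 9.55 ± 1.24 to 22.1 ± 5.07 FPKM, a ratio of means of 2.315. The fitted log2 fold change was 1.18 (SE 0.20, padj = 0.0334, limma with Benjamini-Hochberg adjustment over 16372 genes), and Hbegf was the only one of the 6 tested genes past the thresholds (padj of at most 0.05 and at least 2-fold), where 4.08% of all genes passed. This call was fragile. It held without OGD-VEH culture 9 (log2 fold change 1.36, padj = 0.00229) and was lost without each of the other 7 cultures, with log2 fold changes of 1.08 or more and padj up to 0.104. Most calls of other genes were lost there too. Of all genes, 0.00609% to 0.435% were called in those 7 fits, against 13.3% without culture 9. The exact two-sided permutation test gave p = 0.0286, the smallest value that 70 assignments allow.

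Egfr encodes the EGF receptor. Its sum stood at 16.4, 8.00, 21.2 and 15.4 FPKM in CONTROL-VEH and at 12.4, 110, 109 and 130 FPKM in OGD-VEH. With TIA it stood at 7.29, 9.30, 9.10 and 12.9 FPKM in CONTROL-TIA and at 17.5, 44.65, 27.1 and 82.2 FPKM in OGD-TIA. OGD-VEH culture 9 lay within the control range and the other 3 cultures were far above it, whereas all 4 OGD-TIA cultures were above all of CONTROL-TIA. The log2 fold change in vehicle cultures was 2.20 (SE 0.72, 95% confidence interval 0.55 to 3.85, padj = 0.0765), short of the threshold, and 3.00 (padj = 0.00229) without culture 9.

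Part of this spread lay between isoforms. Egfr-201, the full-length coding isoform of 10208 nt, ran from 6.42 to 8.73 FPKM in the 8 control cultures. It reached 9.44, 21.5, 19.3 and 29.5 FPKM in OGD-VEH and 9.77, 10.6, 9.55 and 18.2 FPKM in OGD-TIA, so that every OGD culture was above every control culture. How many isoforms stood apart in this way was not counted. Of genes as sums, 12.8% did within vehicle cultures and 9.5% within TIA cultures. Egfr-203, a fragment of 463 nt with 77.5% of its bases inside Egfr-201, was estimated at 0.002, 56.1, 62.9 and 58.0 FPKM in OGD-VEH and at 7.11, 19.2, 0 and 43.8 FPKM in OGD-TIA. It made up 49.0% of the summed FPKM in OGD-VEH but about 7.67% of the reads, since FPKM divides by length. Fitted alone, Egfr-201 rose over both drug arms with a log2 fold change of 1.004 (SE 0.21, padj = 0.0156), and it and Nrg1-213 (1.71, padj = 0.0159) were the member isoforms called there, where 1.86% of 53201 isoforms were. Nrg1-213 averaged 0.544 FPKM, near the filter of 0.5 FPKM, and held about 8.35% of the Nrg1 reads in OGD-VEH. Nrg1-203, with about 63.5% of those reads, was not called in limma (0.79, padj = 0.0501). In the isoform fit of OGD-VEH against CONTROL-VEH no member isoform passed in limma, and 0.141% of all 53087 isoforms were called. An unadjusted p below 0.05 was found for 10 of 18 member isoforms and for 19.1% of all isoforms.

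**Figure D2:**
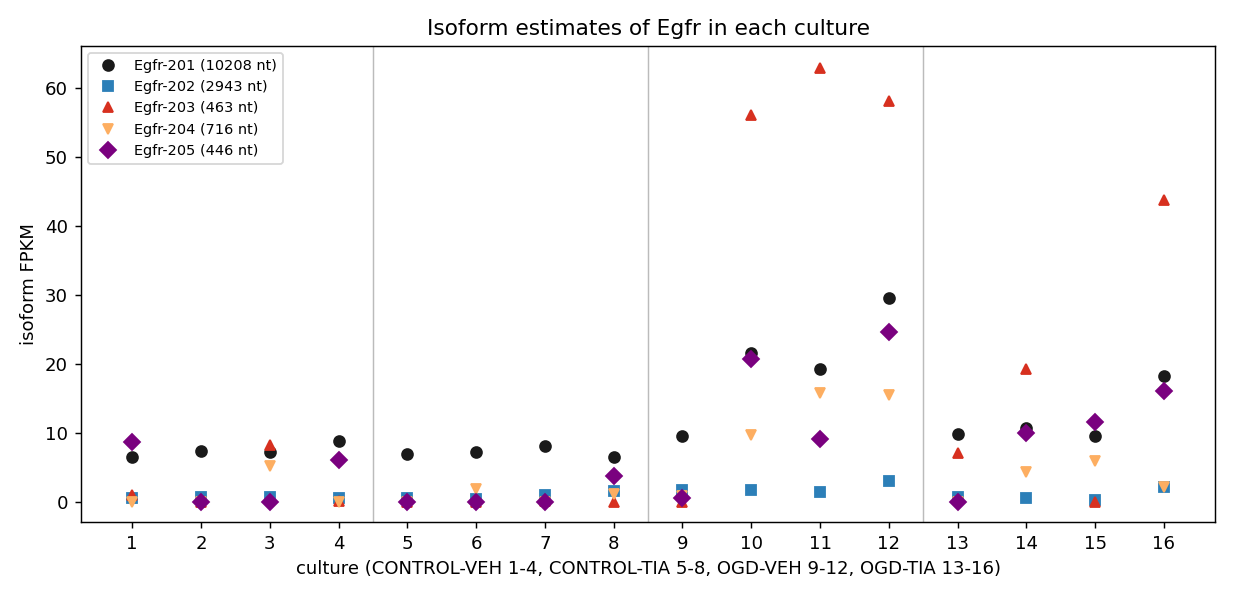
FPKM of the 5 Egfr isoforms in each of the 16 cultures, numbered along the x axis, with thin lines between the groups and isoform lengths in the key. Egfr-201 (black circles) stays between 6.42 and 8.73 FPKM in the controls and is higher in every OGD culture, while the 463 nt Egfr-203 (red triangles) runs from 0 to 62.9 FPKM.

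Short isoforms moved other members in the same way. Tgfa-202 (410 nt, all of it inside Tgfa-201) was estimated at 20.5 FPKM in OGD-VEH culture 11, at 8.18 FPKM in OGD-TIA culture 15 and at 0 in the other 14 cultures. Nrg1-216 (407 nt, with no base of its own) reached 34.9 FPKM in OGD-VEH culture 12, and Erbb2-203 (388 nt) reached 14.7 FPKM in OGD-VEH culture 11 and 4.61 FPKM in CONTROL-VEH culture 4. The length-weighted value gives such fragments the weight of their reads. With it the CONTROL-VEH spread of Egfr narrowed from 15.3 ± 5.46 to 23.7 ± 2.71 FPKM and that of Erbb2 from 2.51 ± 2.48 to 2.46 ± 0.648 FPKM.

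On the length-weighted scale 4 of the 6 tested genes were DEGs after OGD in vehicle cultures, all upregulated, against 6.58% of all genes. Egfr rose from 23.7 ± 2.71 to 71.2 ± 31.0 FPKM (log2 fold change 1.45, SE 0.34, padj = 0.0294) and Erbb2, the ligandless partner receptor, from 2.46 ± 0.648 to 7.04 ± 3.28 FPKM (1.401, SE 0.33, padj = 0.0298). Nrg1, the neuregulin ligand, rose from 5.93 ± 0.269 to 16.5 ± 9.03 FPKM (1.29, SE 0.36, padj = 0.0376), and Hbegf kept its log2 fold change of 1.18 (padj = 0.0256). Tgfa, the TGF-alpha ligand, went from 8.82 ± 0.731 to 13.5 ± 2.72 FPKM, past the padj threshold but under 2-fold (0.59, SE 0.15, padj = 0.0327). Erbb4 did not differ detectably (0.22, 95% confidence interval -0.52 to 0.96, padj = 0.622). The Erbb2 value includes Erbb2-202, annotated without coding bases, which held about 39.2% of Erbb2 reads in CONTROL-VEH and 53.4% in OGD-VEH. Fitted alone in limma, the coding Erbb2-201 was not called in vehicle cultures (0.94, padj = 0.212) or over both drug arms (0.68, padj = 0.0985). Of the bases of Erbb2-202, 98.2% lie in Erbb2-201. The 4 gene calls held without OGD-VEH culture 9, where 13.2% of all genes were called. Without OGD-VEH culture 12 there were 3 left (2.76% of all genes) and without CONTROL-VEH culture 4 there were 2 (2.77%). Without any one of the other 5 cultures there were none, with padj of at most 0.0995 for these genes. In those 5 fits 0.0061% to 0.0306% of all genes were called.

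OGD-VEH and CONTROL-VEH did not overlap for 5 of the 6 tested genes on the length-weighted scale, all higher after OGD, namely Hbegf, Tgfa, Nrg1, Egfr and Erbb2, where 16.8% of all genes were, and for 3 of 6 as sums, Hbegf, Tgfa and Nrg1, where 12.8% were. Weighted Egfr was 29.9, 78.1, 71.8 and 105 FPKM in cultures 9 to 12 against 20.96 to 27.3 FPKM in CONTROL-VEH. Weighted Erbb2 was 3.77, 5.61, 7.32 and 11.46 FPKM against 1.81 to 3.32, and weighted Nrg1 was 6.86, 15.6, 14.7 and 28.6 FPKM against 5.68 to 6.30. Culture 9 was the lowest of its group for all of these genes and culture 12 the highest for each of them but Hbegf.

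In cultures pretreated with TIA none of the 6 tested genes passed both thresholds after OGD. No gene at all did among 16267 (0.0%) in limma, although 3177 (19.5%) had an unadjusted p below 0.05, and on the length-weighted scale 61 genes (0.375%) and no member were called. An unadjusted p below 0.05 was found for 5 of the 6 members. The log2 fold changes of the sums were 1.93 for Egfr (SE 0.44, padj = 0.116), 1.46 for Erbb2 (SE 0.39, padj = 0.142), 1.07 for Nrg1 (SE 0.44, padj = 0.234), 0.58 for Hbegf (SE 0.14, padj = 0.125) and 0.47 for Tgfa (SE 0.19, padj = 0.238). For these 5 genes OGD-TIA and CONTROL-TIA did not overlap, with OGD-TIA higher, both as sums (9.5% of all genes) and on the length-weighted scale (14.2%). The exact permutation p was 0.0286 for each, the smallest possible. Length-weighted Egfr stood at 30.6, 37.0, 31.4 and 64.5 FPKM in OGD-TIA against 20.8 to 25.0 FPKM in CONTROL-TIA.

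Fitted over both drug arms, with 8 OGD and 8 control cultures and a term for TIA, 3 of the 6 tested genes were DEGs, where 4.77% of all genes were. Egfr had a log2 fold change of 2.06 (SE 0.44, padj = 0.00481), Erbb2 of 1.49 (SE 0.43, padj = 0.0180) and Nrg1 of 1.37 (SE 0.40, padj = 0.0200). Hbegf (0.88, SE 0.14, padj = 0.00163) and Tgfa (0.69, SE 0.21, padj = 0.0227) passed the padj threshold below 2-fold, as 5 of 6 members and 32.1% of all genes did whatever the fold. Erbb4 was at 0.01 (95% confidence interval -0.48 to 0.50, padj = 0.978). The calls of Egfr, Erbb2 and Nrg1 held in each of the 16 fits that left out 1 culture, in which padj of these genes reached at most 0.0415. Of all genes, 3.22% to 6.48% were called in these fits. On the length-weighted scale Egfr (1.13, padj = 0.00194) and Erbb2 (1.07, padj = 0.00300) were called, with 3.52% of all genes, and Nrg1 lay just under 2-fold (0.95, padj = 0.00761). There the fold of Egfr fell below 2 without OGD-VEH culture 12, and that of Erbb2 fell below 2 without CONTROL-VEH culture 2, OGD-VEH culture 12 or OGD-TIA culture 16 (log2 fold change down to 0.921), so that Erbb2 was called in 13 of 16 fits. Nrg1 was called in 3 of them, and 2.45% to 5.22% of all genes were called in the 16 fits. All 5 rising members kept padj of at most 0.0174 in all 16 fits.

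**Figure D3:**
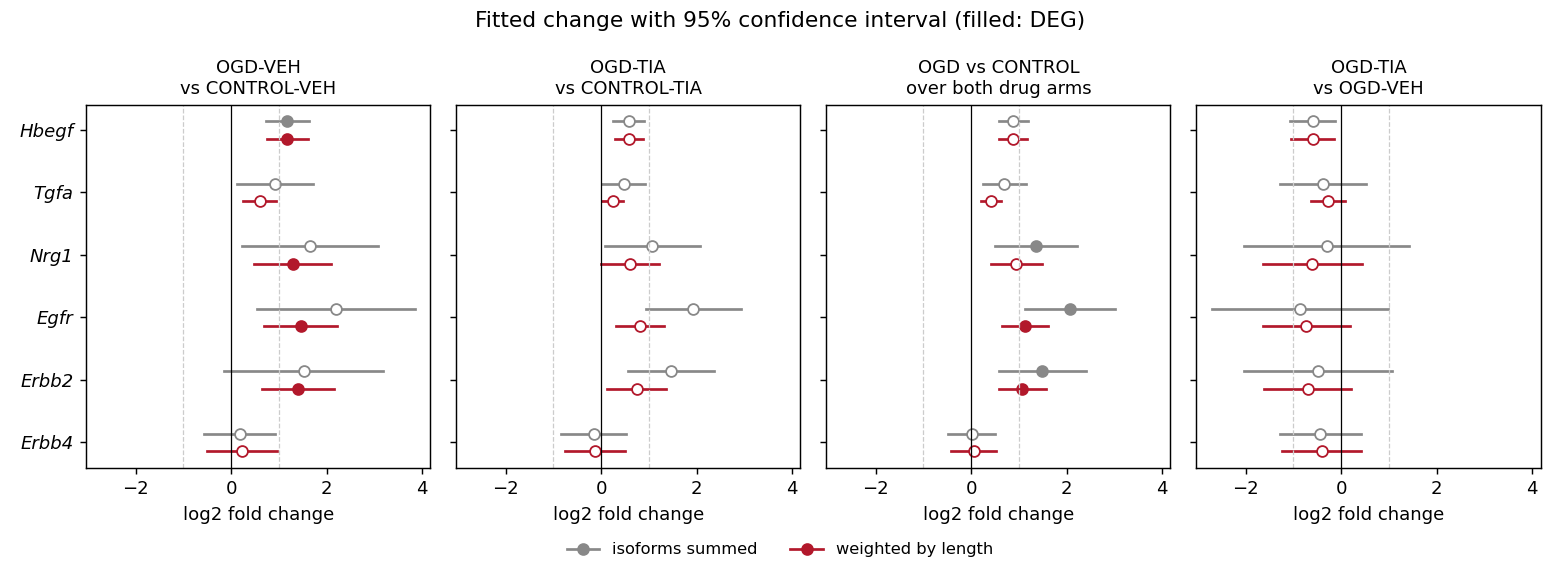
Fitted log2 fold change (x axis) with its 95% confidence interval for the 6 tested genes in 4 comparisons, grey for isoform sums and red for length-weighted values, filled where the gene was a DEG and with dashed lines at 2-fold. Hbegf, Tgfa, Nrg1, Egfr and Erbb2 lie right of 0 in the 3 comparisons of OGD with control, Erbb4 lies at 0.01 over both arms, and no point is filled for OGD-TIA against OGD-VEH.

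No difference between CONTROL-TIA and CONTROL-VEH was detectable for any tested member. No gene was called (0.0% of 16192 genes, limma), 622 had an unadjusted p below 0.05, and no member was among them. Hbegf was 9.54 ± 0.986 FPKM with TIA and 9.55 ± 1.24 FPKM with vehicle (log2 fold change 0.00, 95% confidence interval -0.29 to 0.29). Length-weighted Egfr was 22.3 ± 1.90 against 23.7 ± 2.71 FPKM (-0.08, 95% confidence interval -0.30 to 0.13). These intervals stay within 2-fold, whereas that of the Egfr sum does not (-0.60, 95% confidence interval -1.29 to 0.08).

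After OGD the means of all 6 tested genes were lower with TIA than with vehicle, but none of the differences passed the adjusted test. No gene was called between OGD-TIA and OGD-VEH (0.0% of 16377 genes), and 1294 had an unadjusted p below 0.05. Hbegf came closest, at 14.35 ± 2.41 against 22.1 ± 5.07 FPKM (log2 fold change -0.60, SE 0.21, 95% confidence interval -1.07 to -0.13, padj = 0.551 in limma). Its unadjusted p was 0.0186 in limma and 0.0571 in the exact permutation test. For length-weighted Egfr, at 40.89 ± 15.99 against 71.2 ± 31.0 FPKM, the log2 fold change was -0.73 (95% confidence interval -1.65 to 0.18, padj = 0.470). The test of whether OGD acted differently in the 2 drug arms called no gene (0.0% of 16339, with 990 at an unadjusted p below 0.05). For Hbegf it gave -0.60 (SE 0.25, padj = 0.723 in limma), and for Egfr as a sum -0.26 (SE 0.91, padj = 0.939). The comparisons of this paragraph share the OGD-VEH cultures with that of OGD against vehicle control, and culture 9 is in all of them. Without it Hbegf differed by -0.78 (padj = 0.135).

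Erbb4, which encodes a neuregulin receptor, differed more between places in the numbering of the cultures than between groups. It stood at 7.53, 7.05, 7.54 and 13.1 FPKM in CONTROL-VEH, at 7.87, 7.25, 5.98 and 11.6 FPKM in CONTROL-TIA, at 7.01, 7.53, 9.00 and 18.1 FPKM in OGD-VEH and at 5.85, 6.08, 5.64 and 12.6 FPKM in OGD-TIA. The last culture of each group was its highest. The same cultures, 4, 8, 12 and 16, were the highest of their group in all 4 groups for 689 of 16339 genes (4.22%) and the lowest for 531, against 29 to 333 and 63 to 184 genes for the other places in the numbering. Gfap, the astrocyte filament, was 87.4, 15.1, 85.9 and 64.5 FPKM in them and 5.09 to 26.2 FPKM in the other 12. Of the other astrocyte markers, Aqp4, Slc1a3, S100b and Gja1 were likewise highest in the last culture of each group, and Aldh1l1 was not. Aldh1l1 was 60.6 FPKM in culture 4 against 142 to 180 FPKM in the others of CONTROL-VEH. In culture 8 it was 108 FPKM against 150 FPKM in culture 5. The labels do not say what the place in the numbering stands for, so it is not called a batch, and no fit has a term for it. Leaving out these 4 cultures, Erbb4 differed by -0.09 (SE 0.10, padj = 0.572) over both arms. Egfr (1.80, padj = 0.0364) and Erbb2 (1.69, padj = 0.0365) stayed DEGs, where 2.3% of all genes were called, and Nrg1 fell below 2-fold (0.86, padj = 0.0245). On the length-weighted scale, where 1.98% of all genes were called, Egfr, Erbb2 and Nrg1 all fell below 2-fold (0.92, 0.87 and 0.65, with padj of at most 0.0275 for these genes).

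The other cultures that stood apart were the first of each group. Among the OGD cultures, 9 and 13 kept the most RNA of Sst, the somatostatin of interneurons, at 181 and 190 FPKM against 38.9 to 108 FPKM in the other 6. In cultures 1 and 5 Sst was 363 and 367 FPKM, against 206 to 330 FPKM in the other control cultures. Of the other interneuron markers, Gad2, Slc32a1 and Lhx6 were likewise highest in OGD cultures 9 and 13, whereas Gad1, Npy and Vip were not. Npy, for one, was highest in culture 16. Without cultures 1, 5, 9 and 13 all of Hbegf (1.02, padj = 0.00295), Nrg1 (1.70), Egfr (2.61) and Erbb2 (1.82) were DEGs over both arms. In all, 1224 genes (7.52%) were called.

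The cell types behind these RNAs were read from marker lists. Fewer cells of a type and less RNA per cell cannot be told apart in such bulk samples. The 7 neuron markers summed to 1863 to 2429 FPKM in CONTROL-VEH and to 892 to 1734 FPKM in OGD-VEH, and none was at 0 throughout. Over both arms 2 of the 7 were downregulated DEGs, and none without OGD-VEH culture 12. Of all genes, 4.77% were called over both arms and 4.08% in vehicle cultures. The 7 interneuron markers summed to 395 to 697 FPKM and to 165 to 382 FPKM, and 3 were downregulated DEGs over both arms, among them Sst (log2 fold change -1.72, padj = 0.00242). The 8 oligodendrocyte lineage markers summed to 176.9 to 213 FPKM in CONTROL-VEH and to 244 to 676 FPKM in OGD-VEH. Of the 7 tested, 4 were upregulated DEGs in vehicle cultures, 5 without OGD-VEH culture 9 and none without any one of the other 7 cultures. Of all genes, 13.3% were called without culture 9 and at most 0.435% in the other 7 fits. Over both arms 3 of these markers were upregulated DEGs, among them Olig2 (1.07, padj = 0.00224). In the fits without 1 culture 2 to 4 were, where 3.22% to 6.48% of all genes were called. Mbp, the myelin basic protein of mature oligodendrocytes, went the other way, from 5.73 to 10.1 FPKM in CONTROL-VEH to 2.97 to 4.87 FPKM in OGD-VEH, past the padj threshold but under 2-fold in vehicle cultures (-0.88, padj = 0.0492) and over both arms (-0.68, padj = 0.00898). Without OGD-VEH culture 9, 1 marker of this list was a downregulated DEG. Astrocyte markers summed to 450 to 706 FPKM in CONTROL-VEH and to 613 to 1597 FPKM in OGD-VEH with none of 6 called. Over both arms 4 of the 6 had an unadjusted p below 0.05, all upward, as had 7211 of all 16339 genes in either direction. Aldh1l1, an astrocyte folate enzyme, was an upregulated DEG there (1.03, padj = 0.0102). No astrocyte marker was called there without CONTROL-TIA culture 6 or 7, OGD-VEH culture 12 or OGD-TIA culture 16, nor on the length-weighted scale. Microglial markers stayed at or below 3.1 FPKM and endothelial ones at or below 0.7 FPKM in every culture.

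Among the members, Egfr kept closest to the oligodendrocyte lineage list. In OGD-VEH cultures 9 to 12 that list summed to 244, 560, 526 and 676 FPKM and in OGD-TIA cultures 13 to 16 to 225, 277, 237 and 438 FPKM. Length-weighted Egfr had the same order of cultures in both groups. Per 1000 FPKM of these markers, Egfr stood at 113 to 155 FPKM in all 16 cultures, a 1.37-fold range, while its own level varied 5.05-fold. A ratio as narrow was found for 0.0832% of 15633 genes. The marker sum was itself higher after OGD, so a gene that stayed level has a wide ratio. The share among genes raised by OGD was not counted. The corresponding range was 1.59-fold for Nrg1, 1.77-fold for Hbegf and 1.85-fold for Erbb2, ranges reached by 0.454%, 1.4% and 1.87% of genes, against 4.99-fold for Erbb4 (59.0%). For Tgfa it was 2.42-fold (7.11%), wider than the 2.03-fold range of its own level. Against the astrocyte list the range was 2.24-fold for Nrg1 (7.02%), 2.34-fold for Tgfa (8.8%) and 2.35-fold for Erbb4 (8.89%). It was 2.41-fold for Erbb2 (9.96%), 2.59-fold for Egfr (13.2%) and 3.06-fold for Hbegf (23.4%). Erbb4 and Tgfa were narrower there than against the oligodendrocyte lineage list, and the other members wider. The level of Erbb4 itself varied 3.14-fold, and its range against the interneuron list was 6.22-fold (67.8%). Against the neuron list the range of Egfr was 11.5-fold. This ratio was set up after the values had been seen and is a description over 16 libraries, in which Olig1, Olig2 and Pdgfra make up most of the marker sum. The part of these cells in the change of the members was not tested.

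**Figure D4:**
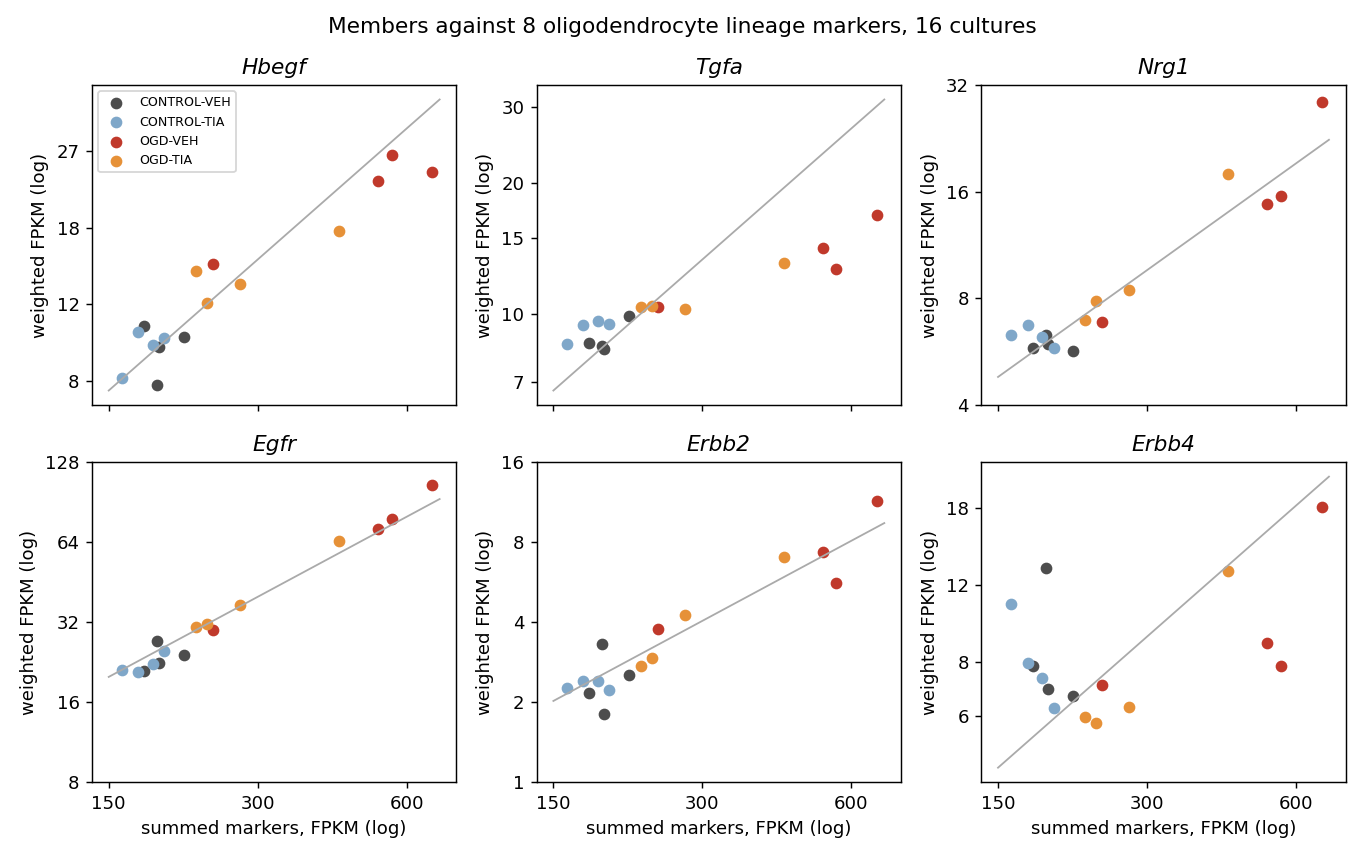
Length-weighted FPKM of the 6 tested genes (y axis, log scale) against the sum of 8 oligodendrocyte lineage markers (x axis, log scale) in the 16 cultures, coloured by group; the grey line has the median ratio. Egfr stays close to the line from the control cultures to OGD-VEH culture 12, with ratios of 113 to 155 per 1000, while Tgfa rises less than the line and Erbb4 scatters.

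Isoform sums, short isoforms included, were compared over the 16 cultures by Pearson's correlation of log2 FPKM, as a description without a test. The genes most like each member were sought among 13000 genes. They were Cavin1 (r = 0.988) and Eloa (0.986) for Hbegf, Jmy (0.964) and Pggt1b (0.957) for Egfr, Ssr3 (0.964) and Atf5 (0.961) for Nrg1, and Cog2 (0.940) and Sirt1 (0.918) for Tgfa. Erbb2 was most like Cep44 (0.926) and Fam76b (0.882). Cog2 and Sirt1 were highest in OGD-VEH culture 11 and OGD-TIA culture 15, the cultures in which Tgfa-202 was above 0. Cep44 was highest in OGD-VEH culture 11 (35.4 FPKM), as was the short Erbb2-203. Likeness to the length-weighted values was not computed. Erbb4 went with Hgf (0.960) and Scara3 (0.952), and Hgf, the hepatocyte growth factor, was likewise highest in cultures 4, 8, 12 and 16 at 5.60, 2.91, 7.69 and 5.29 FPKM against 1.10 to 2.51 FPKM in the other 12.

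The transcripts that act after the receptors were examined with lists of pathway genes. Between OGD-VEH and CONTROL-VEH, 7 of 15 transcripts known to follow ERK activity were upregulated DEGs and 1 was downregulated, where 4.08% of all genes were called. The median log2 fold change of the 15 was 0.93, and that of all genes was 0.10. Emp1, a membrane protein of growing epithelia, rose from 0.844 ± 0.406 to 24.1 ± 10.9 FPKM (log2 fold change 4.65, SE 0.46, padj = 0.0161). Fosl1, the Fra-1 subunit of AP-1, rose from 0.112 ± 0.156 to 6.32 ± 3.01 FPKM (4.98, SE 0.60, padj = 0.0266). Etv5, an Ets factor, rose from 63.9 ± 10.0 to 155 ± 40.1 FPKM (1.25, padj = 0.0334), and Plaur, the urokinase receptor, was called at a low level (2.90, padj = 0.0340). Egr3, a factor of neuronal activity, fell by 1.99 on the log2 scale (padj = 0.0372), from 15.4 ± 5.36 to 3.97 ± 1.65 FPKM. Without OGD-VEH culture 9, where 13.3% of all genes were called, there were 10 upregulated. Without any one of the other 7 cultures, where at most 0.435% were called, there were between 0 and 2, with Egr3 no longer called. On the length-weighted scale 6 were upregulated, Etv5 not among them.

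Over both drug arms 5 of the 15 were upregulated DEGs and 1 was downregulated, where 4.77% of all genes were called. In all 16 fits without 1 culture, where 3.22% to 6.48% of all genes were called, 4 or 5 were upregulated and 1 was downregulated. Emp1 was at 3.80 (padj = 0.000211) and Fosl1 at 4.04 (padj = 0.000436). With TIA 0 of 14 were called in limma, with a median of 0.16 against 0.04 for all genes. An unadjusted p below 0.05 was found for 3 upward and 1 downward, and for 19.5% of all genes. On the length-weighted scale 2 were called, Emp1 and Fosl1, where 0.375% of all genes were. Between OGD-TIA and OGD-VEH none of the 15 was called, and the median was -0.80 against -0.05 for all genes. An unadjusted p below 0.05 was found for 9 of the 15, all lower with TIA, and for 1294 of all 16377 genes. This comparison shares the OGD-VEH cultures with that of OGD against vehicle control, in which these transcripts were raised, so the 2 are not separate evidence.

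Feedback inhibitors of the receptors and of ERK had 2 of 21 upregulated DEGs in vehicle cultures, with a median of 0.21, where 4.08% of all genes were called. The 2 inhibitors were the ERK phosphatases Dusp4 (13.2 ± 2.95 to 55.4 ± 23.3 FPKM, log2 fold change 1.97, padj = 0.0335) and Dusp5 (1.80 ± 0.399 to 4.15 ± 0.888 FPKM, 1.16, padj = 0.0347). Over both arms Dusp4 (1.4, padj = 0.00279) and Lrig1, an inhibitor that lowers EGFR (1.02, padj = 0.0263), were called, Lrig1 not on the length-weighted scale (0.72). With TIA 0 of 21 were called, with 4 upward and 1 downward at an unadjusted p below 0.05, as were 19.5% of all genes. Without OGD-VEH culture 9 there were 5 called in vehicle cultures, with 13.3% of all genes. Without any one of the other 7 cultures there were none, and at most 0.435% of all genes were called.

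Most of the remaining pathway genes showed no change past the thresholds. Of 17 receptor adaptors and effectors, Shc1, the adaptor that couples receptors to Ras, was upregulated in vehicle cultures (4.35 ± 1.76 to 10.98 ± 3.95 FPKM, log2 fold change 1.33, padj = 0.0443), a call lost without any one culture but OGD-VEH 9. No gene of the Ras-ERK cascade was called among 11 in limma, and the median was -0.15. An unadjusted p below 0.05 was found for 2 of them, both lower, and for 5738 of all 16372 genes. Mapk3, which encodes ERK1, had a log2 fold change of -0.61 (padj = 0.0518) and Map2k1, which encodes MEK1, of -0.33 (padj = 0.114). Among 10 ligand sheddases and their helpers 0 were called in vehicle cultures, with 5 at an unadjusted p below 0.05, as were 5738 of all 16372 genes. Rhbdf1, an iRhom that helps ADAM17 to the cell surface, had 1.32 (padj = 0.0650) in vehicle cultures and was a DEG over both arms (1.04, padj = 0.00744), although not on the length-weighted scale (0.73, padj = 0.00240) and not without CONTROL-VEH culture 1, CONTROL-TIA culture 8, OGD-VEH culture 10 or 12 or OGD-TIA culture 16. Bace1, the protease that cuts neuregulin 1, had -0.49 (padj = 0.0437), under 2-fold.

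Of the other EGF family ligands 3 of 5 were tested and 0 called in vehicle cultures. An unadjusted p below 0.05 was found for 5738 of all 16372 genes and for 1 of these ligands. This was Nrg3, a neuronal neuregulin that binds ErbB4, which averaged 7.23 ± 3.55 FPKM after OGD against 15.0 ± 0.979 FPKM in the vehicle control (-1.16, padj = 0.0504), and on the length-weighted scale it was called (-1.15). Egf itself was at 0.903 ± 0.489 and 1.35 ± 0.0974 FPKM (0.66, padj = 0.210).

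**Figure D5:**
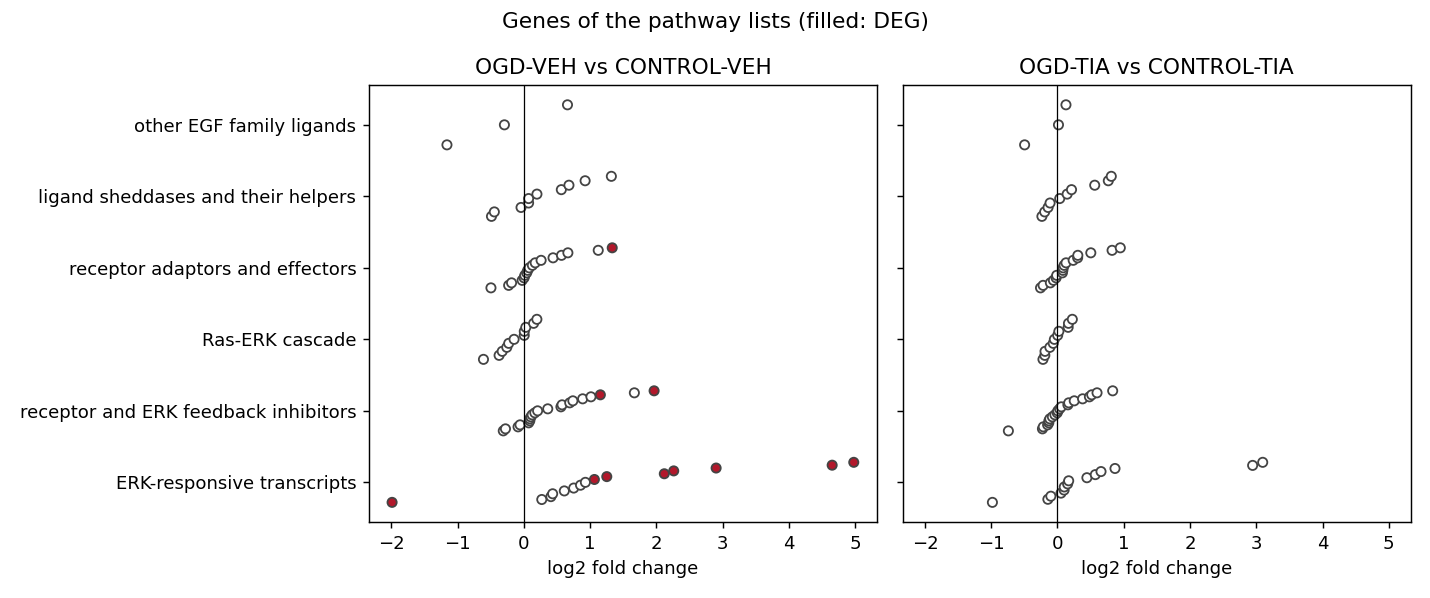
Fitted log2 fold change (x axis) of each tested gene in 6 pathway lists (rows, 1 circle a gene, ordered by value within the row) after OGD in vehicle and in TIA cultures, filled where the gene was a DEG. In vehicle cultures 11 circles are filled, 8 of them among the ERK-responsive transcripts, and none is filled with TIA.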

How the data were processed

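Isoform FPKM in 1 matrix for 16 cultures, TMM-scaled according to its name, were deposited by the authors. Per the labels and the study's methods, stranded libraries of single-end 50-base reads were checked with FastQC, aligned to GRCm38 with STAR and quantified per isoform with eXpress; versions are not given in the sources used here. The authors tested with DESeq2, for which counts are needed. Here 74 lines without an identifier were left out, isoforms were assigned to genes (99.82% were in GENCODE M21) and their FPKM summed, or weighted by length and rescaled to the gene's mean sum. log2(FPKM + 0.1) was fitted, where a gene averaged 0.5 FPKM or more over the cultures used, with limma 3.58.1 (R 4.3.3) with a trend, and DEGs had padj of at most 0.05 and at least 2-fold. Fold changes on this scale understate changes of low genes. The procedure was tested on simulated data. Exact permutation tests were two-sided.

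Depth was estimated from low values of 16546 genes with 1 isoform. It is approximate, since 45.0% to 50.4% of values lay within 0.15 of whole reads, and counts were not recovered.

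The members, pathway lists and marker lists were chosen with earlier results of these data known. From each pathway list the genes called in vehicle cultures were named, up to 4 a direction by smallest p, or the 2 with the smallest p where none was called; the 2 genes most like a member were sought at a mean of 2 FPKM or more. Nardilysin is listed as Nrd1. Genes that pooled fits alone called, single marker genes, the TCCTCC letters, the Ereg comparison of OGD-TIA with OGD-VEH, the marker ratio, the isoform fits and the fits without cultures 1, 5, 9 and 13 or 4, 8, 12 and 16 were added with the values in view. Alternatives tried were other pseudocounts (1 and 0.01), other filters, median-ratio scaling, array weights, length weighting, a fit of all 16 cultures and leaving out each culture. RefSeq promoter windows are of GRCm38.p6.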

Additional observations from a re-analysis of the deposited data

Results flagged for a closer look

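In 5 of about 40 sets of 4 cultures, 1 culture lay apart from the other 3 by Dixon's ratio on the log2 scale; chance gives about 1 in 20. Egfr was 12.386 FPKM in OGD-VEH culture 9 and 108.519 to 130.49 FPKM in the other 3. Erbb4 was 13.079 FPKM in CONTROL-VEH culture 4 against 7.047 to 7.545 FPKM, and 12.618 FPKM in OGD-TIA culture 16 against 5.645 to 6.081 FPKM. Tgfa was 7.218 FPKM in CONTROL-TIA culture 8 against 7.976 to 8.141 FPKM. Ereg was 0.01 FPKM in CONTROL-VEH culture 3 and 0 in the other 3, a difference of about 1 read.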

How the results depend on the processing

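No paired analysis was run, because the labels number the cultures 1 to 16 and no number occurs in more than 1 group. Cultures with the same place in the numbering nevertheless moved together for many genes, 689 of 16339 being highest in cultures 4, 8, 12 and 16. No fit took this into account, and how the padj values and calls would change with a term for place was not tested. Genes called in vehicle cultures (668, 1 a member) were 21 without a filter on low values (0 members), 1930 with array weights (5 members), 1077 with length weighting (4), 1393 in the fit of all 16 cultures (3) and 75 among isoforms. They were 1794 (3 members) without cultures 1, 5, 9 and 13 and 2 (0) without 4, 8, 12 and 16, or 1944 (4) and 128 (0) with length weighting. Leaving out 1 culture gave 1 to 2188 genes and 0 to 4 members, and 1 to 2157 and 0 to 4 with length weighting, the highest each time without OGD-VEH culture 9.

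With TIA, where 0 genes were called, 7 were without a filter, 80 with array weights, 61 with length weighting, 1 in the fit of all 16 cultures and 16 among isoforms, and 0 to 17 without 1 culture (17 without OGD-TIA culture 16), never a member. For TIA alone there were 4 without a filter and 5 among isoforms. For OGD-TIA against OGD-VEH there were 4, 404 with array weights and 13 among isoforms, and 0 to 2 without 1 culture. The interaction gave 3 without a filter and 0 to 1 without 1 culture. Over both arms 779 genes became 393 with a pseudocount of 1, 1224 without cultures 1, 5, 9 and 13, and 375 without 4, 8, 12 and 16 (322 and 0 members with length weighting). Leaving out 1 culture gave 525 to 1059 genes and 3 members, and 399 to 851 genes and 0 to 3 members with length weighting (0 without OGD-VEH culture 12).

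Changes of sign met values near 0. For TIA alone Hbegf turned to -0.056 with array weights and to -0.013 without cultures 4, 8, 12 and 16, Erbb2 to 0.144 without them and Erbb4 to 0.004 with array weights. Erbb4 over both arms turned to -0.049 with median-ratio scaling, -0.125 with array weights, -0.085 without cultures 4, 8, 12 and 16 and -0.052 with length weighting as well. The interaction of Erbb2 turned to 0.131 without cultures 1, 5, 9 and 13. Without 1 culture at a time, Erbb4 ranged over both scales from -0.124 to 0.441 in vehicle cultures and from -0.142 to 0.137 over both arms. The other ranges are of isoform sums, the scale on which these fits were run. There Erbb4 ranged from -0.431 to 0.022 with TIA and from -0.28 to 0.104 for TIA alone, where Hbegf ranged from -0.088 to 0.077 and Erbb2 from -0.703 to 0.126. For OGD-TIA against OGD-VEH Nrg1 ranged from -0.805 to 0.37 and Erbb2 from -0.907 to 0.064, and in the interaction Nrg1 from -1.081 to 0.094, Egfr from -1.067 to 0.088 and Erbb2 from -0.612 to 0.492. The causes were not tested. Areg rested on at most about 7.40 reads in a culture and Ereg on 4.77, and no change in them passed the adjusted test at this depth.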
